A study of Mus musculus with 10 samples.

Results

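Keratins are the intermediate filament proteins of epithelial cells, and 7 of them were followed here across knockdowns of the secreted protease inhibitors Serpine2 and Slpi in mouse mammary carcinoma cells. The basal keratins were Krt5, Krt14 and Krt17, and the simple epithelial keratins were Krt7, Krt8, Krt18 and Krt19. They were chosen by name, as 7 of the 23479 gene entries of the deposited table. Krt14 and Krt7 were higher than in control cells with each of the 4 hairpins, Krt14 by 1.85-fold to 4.28-fold and Krt7 by 1.58-fold to 2.04-fold. Krt8, Krt18 and Krt19 differed less and not with every hairpin, and Krt5 and Krt17 were close to the limit of detection.

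Total RNA of 4T1-T was sequenced, a clone that began as 1 cell of the mouse mammary cancer line 4T1. All 10 libraries came from cells of that 1 clone infected with a short hairpin RNA and kept in high-glucose DMEM with serum. The 5 groups, with 2 libraries each (A and B), carried the first or the second hairpin against Serpine2 (shSerpine2-1, shSerpine2-2), the first or the second hairpin against Slpi (shSlpi-1, shSlpi-2), or a hairpin against Renilla luciferase, which mouse cells lack (shRenilla, the control). The labels do not say whether A and B were separate infections or cultures, so p-values cover only the differences between A and B, which may be technical.

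Keratin filaments are built from pairs of a type II and a type I protein. Among the 7, Krt5, Krt7 and Krt8 are type II, and Krt14, Krt17, Krt18 and Krt19 are type I. In the mammary gland, Krt5, Krt14 and Krt17 mark the basal, myoepithelial layer, where Krt5 pairs with Krt14, while Krt8, Krt18, Krt19 and Krt7 mark the luminal layer, where Krt8 pairs with Krt18. Breast carcinomas are commonly typed by which of these sets they express.

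Recovered depth was 15877431 to 24026620 reads per library. Each target was lowest with its own hairpins: Serpine2 averaged 134 ± 7.94 normalized reads in shSerpine2-1 and 501 ± 17.5 in shSerpine2-2, against 3201 ± 79.1 in shRenilla, and Slpi averaged 146 ± 1.09 in shSlpi-1 and 68.3 ± 10.5 in shSlpi-2, against 1251 ± 87.6 in shRenilla (SD, n = 2 libraries each). Serpine2 was also low with the Slpi hairpins, at 1336 and 1642 normalized reads in shSlpi-1 and shSlpi-2. Slpi averaged 370 in shSerpine2-1, but 1164 ± 75.6 in shSerpine2-2, where the libraries overlapped those of shRenilla. The shSlpi-2 libraries stood apart: the ribosomal RNA entry Rn45s took 6.88% and 6.91% of their reads, against 1.00% and 1.21% in shRenilla, and their A and B libraries differed by a chi-square of 9.66 per degree of freedom, against 1.51 to 2.64 in the other groups. Keratin results that rest on shSlpi-2 are therefore also given without it, and other genes are given for shSlpi-1 alone where that hairpin did not pass the test. Without shSlpi-2, the Slpi difference is that of shSlpi-1 alone. The spread is then estimated without the shSlpi-2 libraries, which can lower the p-value. All 6 mammary carcinoma markers were expressed (Epcam, Cdh1, Krt8, Krt18, Krt7, Krt19). Of the markers of other cells, 1 of 8 for fibroblasts (Pdgfra), 1 of 7 for leukocytes (Cd68), 0 of 6 for endothelium and 2 of 14 for keratinizing epithelium (Krt10, Krt16) reached a mean of 10 normalized reads. In shSlpi-2 the summed levels of these lists were 469 to 601 for fibroblasts, 47.4 to 86.2 for endothelium, 124 to 129 for keratinizing epithelium and 123 to 168 for leukocytes, against 888 to 905, 14.7 to 20.9, 104 to 105 and 145 in shRenilla. The leukocyte ranges overlapped and the others did not. Their part in the keratin differences was not tested.

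The genes lie in 2 clusters. On GRCm38, with GENCODE M21 gene models, the type I genes Krt19 (chr11:100140810-100148665), Krt14 (chr11:100203162-100207548) and Krt17 (chr11:100256217-100261029) are on the minus strand of chromosome 11. The type II genes Krt7 (chr15:101411043-101430313, plus strand), Krt5 (chr15:101707070-101712898, minus strand) and Krt8 (chr15:101996698-102004482, minus strand) are on chromosome 15. Krt18 (chr15:102028180-102032027, plus strand), although type I, lies 23697 bases from Krt8.

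Krt7, Krt8 and Krt18 are the neighbours on chromosome 15 with the most reads, and their promoter windows are shown because the Zeb and Snail repressors, which are known to silence epithelial genes, bind the E-box CACCTG. The windows run from 250 bases before to 50 after the RefSeq start (GRCm38.p6), at chr15:101412153-101412452 on the plus strand for Krt7, chr15:102004293-102004592 on the minus strand for Krt8 and chr15:102027966-102028265 on the plus strand for Krt18. Capitals mark CACCTG, the GC box GGGCGG and the TATA box TATAAA, searched on both strands.
Krt7: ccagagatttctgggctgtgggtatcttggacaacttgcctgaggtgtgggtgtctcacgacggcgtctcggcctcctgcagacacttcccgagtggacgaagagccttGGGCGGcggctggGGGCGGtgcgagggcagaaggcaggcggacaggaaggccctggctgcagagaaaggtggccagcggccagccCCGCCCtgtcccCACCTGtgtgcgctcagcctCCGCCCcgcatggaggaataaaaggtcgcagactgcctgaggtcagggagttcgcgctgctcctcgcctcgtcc
Krt8: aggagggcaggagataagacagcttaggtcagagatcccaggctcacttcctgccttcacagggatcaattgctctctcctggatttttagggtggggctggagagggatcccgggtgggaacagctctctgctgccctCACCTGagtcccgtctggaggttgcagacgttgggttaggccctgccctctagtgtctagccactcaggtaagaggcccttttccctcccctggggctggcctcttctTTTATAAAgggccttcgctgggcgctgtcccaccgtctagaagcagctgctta
Krt18: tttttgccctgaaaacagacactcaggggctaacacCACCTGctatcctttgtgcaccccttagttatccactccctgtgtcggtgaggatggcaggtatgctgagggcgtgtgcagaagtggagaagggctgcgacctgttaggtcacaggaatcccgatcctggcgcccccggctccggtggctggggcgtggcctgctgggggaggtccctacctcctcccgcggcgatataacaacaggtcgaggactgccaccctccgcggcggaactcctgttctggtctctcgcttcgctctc

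Each of the 3 windows held CACCTG once, starting 44 bases before the RefSeq start in Krt7, 111 before it in Krt8 and 214 before it in Krt18. The window of the nearly absent Krt5, which is not shown, also held CACCTG, on the other strand, starting 128 bases before its RefSeq start. Of all 32851 RefSeq windows of this length, 20.2% held CACCTG. Krt7 also had 4 GC boxes, a motif of 35.7% of windows. In Krt8, TATAAA began 1 base before the RefSeq start and overlapped a match on the other strand that began 3 bases before it. Of all windows, 13.6% held that motif. The AP-1 motif TGANTCA (7.81% of windows) and CCAAT (37.4%) were in none of the 3. The RefSeq start of Krt7 lies 1360 bases inside its GENCODE gene, which includes transcripts that begin further upstream, but 1 base from the start of its longest coding transcript. The RefSeq starts of Krt8 and Krt18 lie 140 and 36 bases inside both their genes and their longest coding transcripts. By that model the CACCTG of Krt8 lies within the transcript and not before it. The RefSeq start of Krt14 lies 1518 bases inside both its gene and its longest coding transcript, so that window is not shown. A match is a description of letters in these windows only.

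Keratin genes resemble each other, so reads can be divided among copies. Of the 76-base stretches of Krt8, 23.2% also occur elsewhere among the transcripts, mostly in the pseudogene Krt8-ps. The share was 7.59% for Krt5 and 5.79% for Krt14, and 0% for Krt7, Krt17, Krt18 and Krt19. Krt14 shares its stretches with Krt16 alone, a keratin of stressed epidermis. Some of these stretches lie in a common run of 134 coding bases, and the others lie outside it. In the coding window around that run, on chromosome 11 in both genes, 156 of 160 bases are identical. Capitals mark the bases that differ.
Krt14: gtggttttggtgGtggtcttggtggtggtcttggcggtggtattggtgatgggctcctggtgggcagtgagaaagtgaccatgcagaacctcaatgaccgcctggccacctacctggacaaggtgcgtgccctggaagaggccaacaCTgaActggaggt
Krt16: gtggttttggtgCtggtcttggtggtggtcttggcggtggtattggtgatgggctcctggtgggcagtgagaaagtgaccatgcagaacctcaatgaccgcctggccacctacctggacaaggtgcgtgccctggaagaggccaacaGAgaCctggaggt

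Krt16 averaged 9.65 to 22.0 normalized reads over the 5 groups, and Krt14 117 to 507, so Krt16 transcripts were few beside those of Krt14.

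Per kilobase of exon, Krt18 had the highest mean level over the 10 libraries (4235 normalized reads per kb), followed by Krt8 (1918), Krt7 (431), Krt19 (344) and Krt14 (161). Krt17 (2.12) and Krt5 (1.37) were far below. The simple keratins thus outnumbered the basal ones in every library. The level of Krt7 depends on the gene model: it was 742 per kb when divided by its longest coding transcript in place of all its exons. Vim, the intermediate filament gene of mesenchymal cells, had 60930 to 71989 normalized reads per library, and was looked at after its values were known. It averaged 71070 in both Serpine2 groups, 65181 in shSlpi-1, 62390 in shSlpi-2 and 68542 in shRenilla, and did not pass the test with Serpine2 hairpins (log2 fold change 0.05, adjusted p = 0.412) or Slpi hairpins (-0.10, adjusted p = 0.0693).

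Krt14, the type I partner of Krt5 in basal cells, had 216 and 219 normalized reads in shSerpine2-1, 244 and 266 in shSerpine2-2, 347 and 284 in shSlpi-1, 544 and 471 in shSlpi-2, and 115 and 120 in shRenilla (A and B). Every knockdown library was above both control libraries, and no group overlapped the next in the order shSlpi-2, shSlpi-1, shSerpine2-2, shSerpine2-1, shRenilla. The share of all genes tested that separate in this way was not counted, here or for the keratins below. Over both Serpine2 hairpins, Krt14 rose by 1.00 on the log2(normalized reads + 1) scale (SE 0.10, adjusted p = 8.16e-06, limma with Benjamini-Hochberg adjustment over the 12299 genes tested), or 2.00-fold. Over both Slpi hairpins it rose by 1.75 (SE 0.10, adjusted p = 3.28e-09), or 3.37-fold, and without shSlpi-2 by 1.41 (adjusted p = 7.91e-11). On the deposited log2 scale, which compresses weakly expressed genes, the same differences were 0.53 and 1.03 and still passed.

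Krt7, a type II keratin of simple and ductal epithelia, had 2978 and 3072 normalized reads in shSerpine2-1, 3092 and 3137 in shSerpine2-2, 3138 and 3318 in shSlpi-1, 4020.0 and 3783 in shSlpi-2, and 1991 and 1831 in shRenilla. Again no group overlapped its neighbour, and the order of the groups was that of Krt14, although shSlpi-1 A and shSerpine2-2 B were nearly equal. Krt7 rose by 0.68 with the Serpine2 hairpins (SE 0.05, adjusted p = 1.79e-07), and by 0.89 with the Slpi hairpins (SE 0.05, adjusted p = 1.64e-09). Without shSlpi-2 the difference for Slpi was 0.76 (adjusted p = 1.34e-13).

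Krt8, the main type II keratin of luminal cells, had 3406 and 3393 normalized reads in shSerpine2-1, 4236 and 4080.0 in shSerpine2-2, 3518 and 3844 in shSlpi-1, 4405 and 4171 in shSlpi-2, and 3337 and 3172 in shRenilla. The shSerpine2-1 libraries were barely above the control ones, and shSlpi-2 and shSerpine2-2 overlapped. Krt8 rose by 0.21 with the Serpine2 hairpins (SE 0.05, adjusted p = 0.00487) and by 0.29 with the Slpi hairpins (SE 0.05, adjusted p = 1.89e-04). The Serpine2 call was lost without shRenilla B (0.17). Without shSlpi-2 the Slpi difference was that of shSlpi-1 alone (0.18). It passed with shSlpi-2 left out of the fit (adjusted p = 0.00290), and was near the threshold with shSlpi-2 kept in it (adjusted p = 0.0331).

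Krt18, the type I partner of Krt8, had 5187 and 5403 normalized reads in shSerpine2-1, 6090.0 and 6311 in shSerpine2-2, 6104 and 5821 in shSlpi-1, 7048 and 7851 in shSlpi-2, and 5494 and 5548 in shRenilla. Both shSerpine2-1 libraries were below both control libraries, and the other groups were above them. The difference with the Serpine2 hairpins was 0.05 (95% interval -0.05 to 0.15, adjusted p = 0.450). With the Slpi hairpins Krt18 rose by 0.27 (SE 0.05, adjusted p = 2.99e-04), and without shSlpi-2 by 0.11 (adjusted p = 0.0318). That 0.11 is the difference of shSlpi-1 alone, which did not pass with shSlpi-2 kept in the fit (adjusted p = 0.178).

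Krt19, a small type I keratin that lacks most of the tail domain, had 556 and 562 normalized reads in shSerpine2-1, 587 and 585 in shSerpine2-2, 659 and 566 in shSlpi-1, 859 and 877 in shSlpi-2, and 557 and 579.6 in shRenilla. Only shSlpi-2 stood clear of all other groups, since shSlpi-1 A was high and shSlpi-1 B lay among the control values. The difference was 0.01 with the Serpine2 hairpins (95% interval -0.13 to 0.15, adjusted p = 0.932). It was 0.36 with the Slpi hairpins (SE 0.07, adjusted p = 6.47e-04), and without shSlpi-2 the call was lost (0.10, adjusted p = 0.331).

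**Figure D1:**
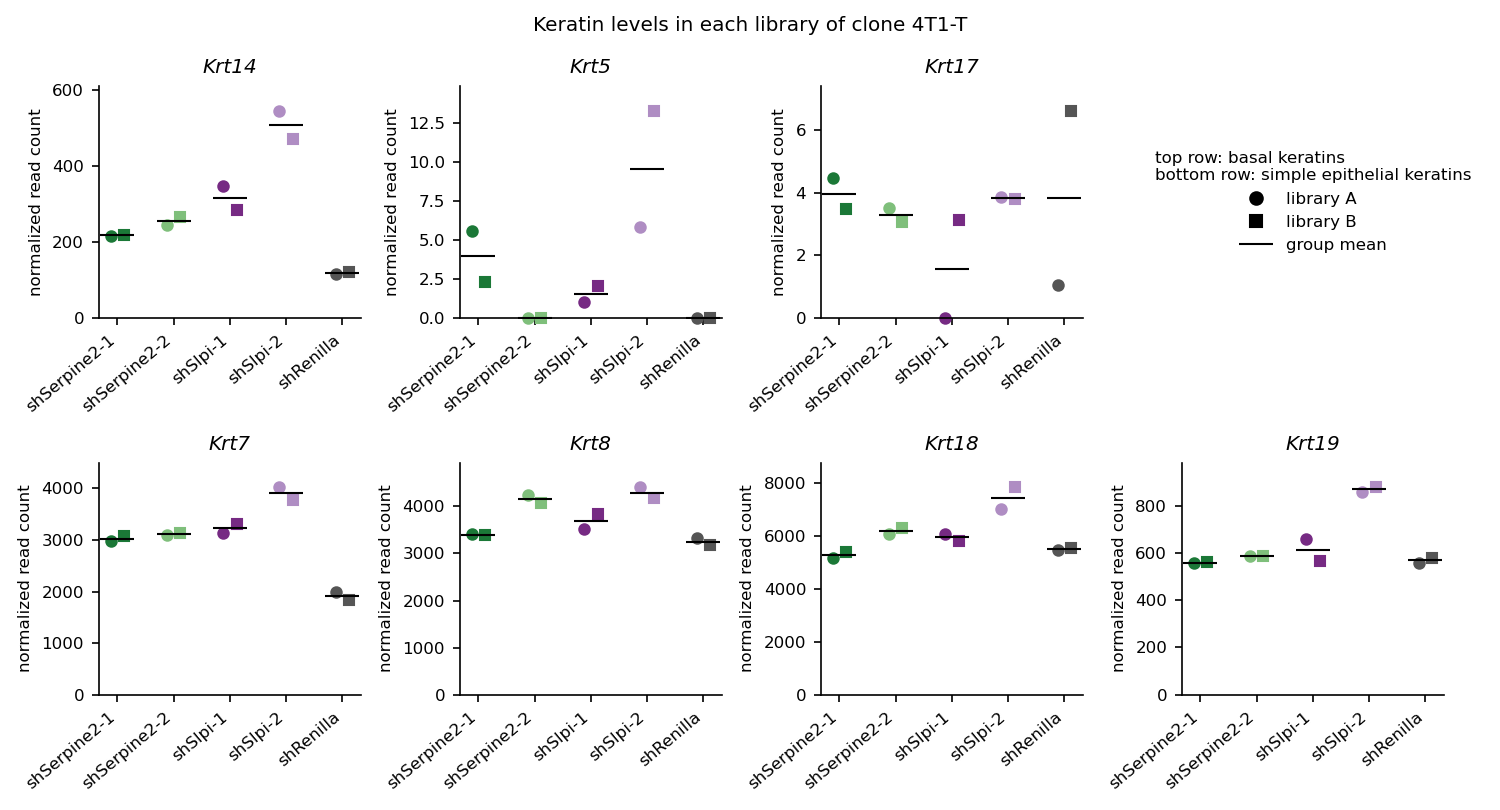
Normalized reads of each keratin in each library, with 1 panel a gene, 1 point a library and a bar at each group mean, and each axis starting at 0. Krt14, Krt7 and, by a small margin in shSerpine2-1, Krt8 were higher in all 8 knockdown libraries than in both shRenilla libraries. Krt19 stood clear of the other groups in shSlpi-2 alone. The share of all genes that separate in these ways was not counted.

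Of the 5 keratins that reached the mean of 10 normalized reads needed for the test, 3 rose with the Serpine2 hairpins (Krt14, Krt7, Krt8), where 10.7% of all genes tested rose. All 5 rose with the Slpi hairpins, where 16.5% of all genes did. The 2 comparisons share the shRenilla libraries. The members' median log2 difference was 0.21 with the Serpine2 hairpins and 0.36 with the Slpi hairpins, beside a median of -0.00 and -0.01 over all genes tested. In RNA of whole cultures, more cells expressing a keratin and more keratin RNA per cell cannot be told apart.

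Single hairpins were then compared with shRenilla. With shSerpine2-1, 2 of 5 rose (Krt14 by 0.89, Krt7 by 0.66), against 5.09% of all genes, and Krt8, Krt18 and Krt19 differed by 0.06, -0.06 and -0.02 without passing the test. With shSerpine2-2, 4 of 5 rose (Krt14 by 1.11, Krt7 by 0.71, Krt8 by 0.35, Krt18 by 0.17), against 14.2% of all genes, and Krt19 differed by 0.04 without passing. With shSlpi-1, 3 of 5 rose (Krt14 by 1.41, Krt7 by 0.76, Krt8 by 0.18), against 7.65% of all genes, and Krt18 and Krt19 differed by 0.11 and 0.10 without passing. With shSlpi-2, all 5 rose (Krt14 by 2.10, Krt7 by 1.03, Krt8 by 0.40, Krt18 by 0.43, Krt19 by 0.61), against 20.4% of all genes. Krt18 with shSerpine2-2 (adjusted p = 0.0297) and Krt8 with shSlpi-1 (adjusted p = 0.0331) were near the threshold. Their calls were lost on leaving out either shRenilla library, where the adjusted p was 0.127 and 0.117 for Krt18 and 0.0652 and 0.247 for Krt8. The Krt18 call was also lost without either shSerpine2-2 library (adjusted p = 0.0784 and 0.202), and the Krt8 call without shSlpi-1 B (adjusted p = 0.314) or any 1 of the 4 Serpine2 libraries (0.0531 to 0.0585). With no filter on low values both calls were lost (adjusted p = 0.0956 for Krt18 and 0.0854 for Krt8), and scaled by library total that of Krt18 was (adjusted p = 0.0508). Krt18 with shSlpi-1 passed when both shSlpi-2 libraries were left out (adjusted p = 0.0318).

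**Figure D2:**
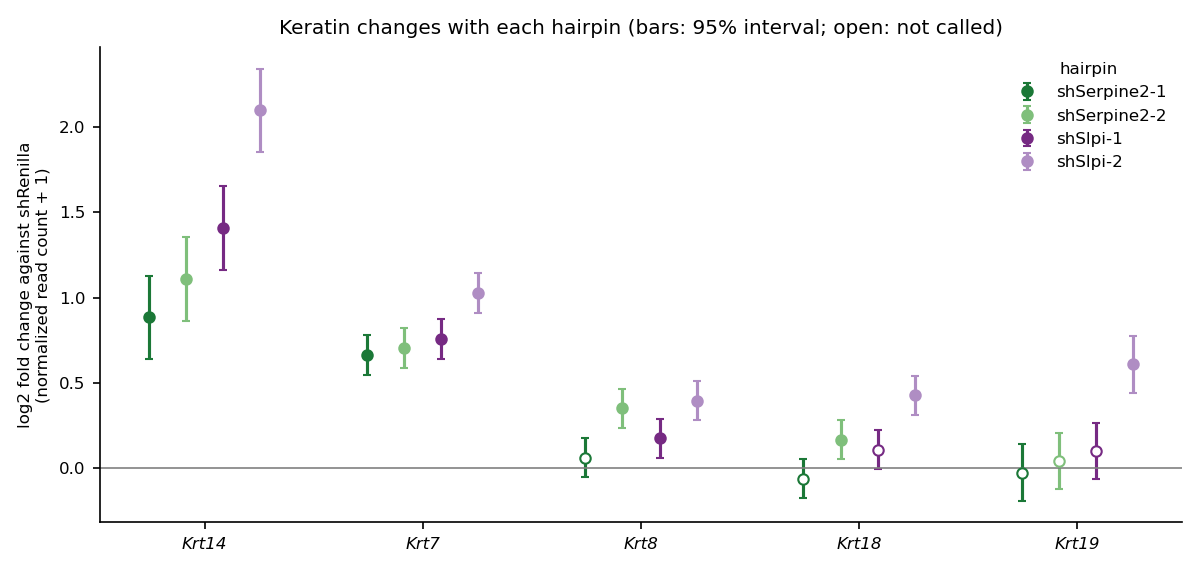
Log2 fold change of each tested keratin with each hairpin against shRenilla, on the log2(normalized reads + 1) scale, with 95% intervals from the fit and open points where the test was not passed. Krt14 lay between 0.89 and 2.10 and Krt7 between 0.66 and 1.03, while Krt19 passed the test with shSlpi-2 only (0.61).

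The hairpins against the 2 genes were compared with each other directly. Krt14 was lower with the Serpine2 than with the Slpi hairpins, by a log2 difference of -0.76 (SE 0.08, adjusted p = 1.37e-05). Krt7 (-0.21, adjusted p = 0.00181), Krt18 (-0.22, adjusted p = 0.00112) and Krt19 (-0.35, adjusted p = 5.06e-04) were lower too, and Krt8 did not pass (-0.08, 95% interval -0.16 to 0.00, adjusted p = 0.170). That is 4 of 5 lower, where 7.21% of all genes were lower. Without shSlpi-2, 1 of 5 passed, Krt14 (-0.41, adjusted p = 0.00416).

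Hairpins against the same gene also differed. Between shSerpine2-1 and shSerpine2-2, Krt8 (-0.29, SE 0.05, adjusted p = 0.00245) and Krt18 (-0.23, SE 0.05, adjusted p = 0.0103) were lower with shSerpine2-1, 2 of 5, where 7.69% of all genes were lower, and Krt14 differed by -0.23 without passing (95% interval -0.47 to 0.02). Between shSlpi-1 and shSlpi-2, all 5 were lower with shSlpi-1, where 12.3% of all genes were lower: Krt14 by -0.69, Krt19 by -0.51, Krt18 by -0.32, Krt7 by -0.27 and Krt8 by -0.22. The Krt18 call between the Serpine2 hairpins was lost without shSerpine2-1 A (-0.20, adjusted p = 0.135), shSerpine2-1 B (-0.26, adjusted p = 0.0512) or shSerpine2-2 B (-0.20, adjusted p = 0.127), and with no filter (adjusted p = 0.0507). The Krt8 call between the Slpi hairpins was lost without shSlpi-1 A (-0.16, adjusted p = 0.102) and with only the compared groups in the fit (adjusted p = 0.0800). Scaled by library total, which shifts the median of all genes between the Slpi hairpins by 0.10, Krt8 there was -0.12 (adjusted p = 0.0899).

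Krt5, the type II partner of Krt14, was nearly absent. It had 5 and 2 reads in shSerpine2-1, 0 and 0 in shSerpine2-2, 1 and 2 in shSlpi-1, 6 and 14 in shSlpi-2, and 0 and 0 in shRenilla, 30 reads in all against 2903 of Krt14. Both shSlpi-2 libraries were above every control library. Their mean of 9.53 normalized reads was 5.89-fold the 1.62 that 3 reads over the shRenilla group would give. The mean of 3.95 in shSerpine2-1 was 2.44-fold that floor. The floor covers only the counting error of the control, not that of the 20 and 7 reads set against it. Neither ratio is therefore a lower bound. Krt17, a type I keratin of basal and wounded epithelium, had summed counts of 7 reads in shSerpine2-1, 8 in shSerpine2-2, 3 in shSlpi-1, 8 in shSlpi-2 and 7 in shRenilla, with no difference detectable at this depth. Neither gene reached the filter, so neither is among the 5 tested. With no filter, over 22241 genes, Krt5 passed with the Slpi hairpins (adjusted p = 0.00800, where 13.5% of those genes rose) and with shSlpi-2 (adjusted p = 0.00201, where 21.9% rose), and not with the Serpine2 hairpins (adjusted p = 0.196), shSerpine2-1 (0.0576) or shSlpi-1 (0.176). Krt5 also passed between hairpins against the same gene. It was higher in shSerpine2-1 than in shSerpine2-2 (adjusted p = 0.0457), on 7 reads against 0. The share of genes higher there was not counted without the filter. With the filter, 859 of the 12299 genes tested were higher there. Krt5 was lower in shSlpi-1 than in shSlpi-2 (adjusted p = 0.0357, where 8.78% were lower). Krt17 passed in none of the 9 comparisons without the filter, with adjusted p of 0.308 or more.

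Other weak keratins moved in the same libraries as Krt5. The 40 other keratins with a mean under 10 normalized reads together had 44 and 66 reads in shSerpine2-1, 14 and 27 in shSerpine2-2, 70 and 49 in shSlpi-1, 117 and 137 in shSlpi-2, and 18 and 19 in shRenilla. Scaled to reads per 1000000, the group means were 3.41, 0.894, 3.36, 6.27 and 1.09 in the same order of groups. All 11180 weakly expressed genes took 0.0896%, 0.0484%, 0.102%, 0.170% and 0.0651% of reads in that order, so shSlpi-2 was highest and shSerpine2-2 lowest in both of these measures. Their part in the Krt5 counts was not tested.

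**Figure D3:**
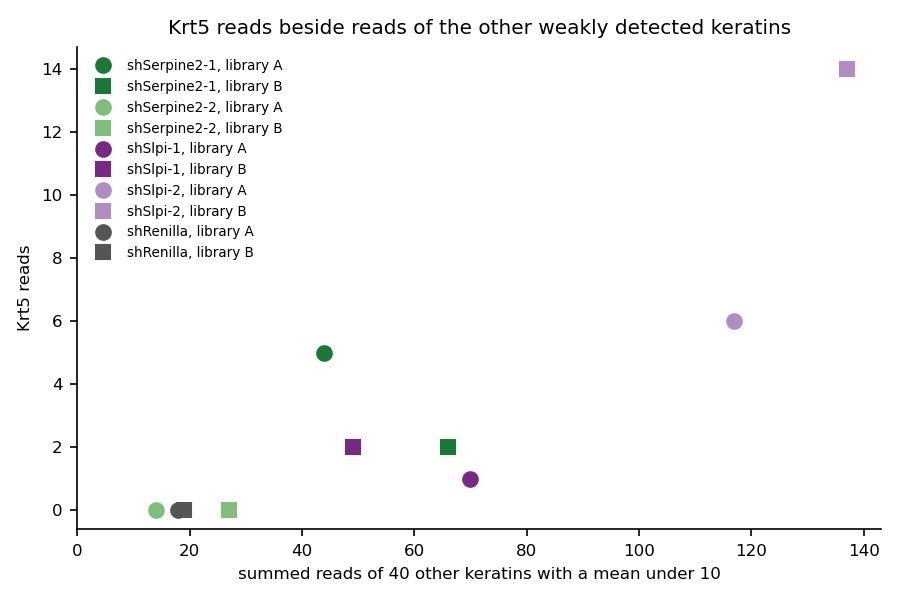
Reads of Krt5 in each library (vertical axis) against the summed reads of the 40 other weakly expressed keratins (horizontal axis), with 1 point a library. The shSlpi-2 libraries had the most of both, with 6 and 14 Krt5 reads beside 117 and 137 reads of the others, and the shRenilla libraries had 0 beside 18 and 19.

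The make-up of the keratin pool followed from these levels. Basal keratins made up 2.07% and 2.01% of the summed reads per kb of the 7 genes in shSerpine2-1, 1.93% and 2.07% in shSerpine2-2, 2.81% and 2.37% in shSlpi-1, 3.70% and 3.11% in shSlpi-2, and 1.07% and 1.18% in shRenilla. Nearly all of the basal share was Krt14, and every knockdown library lay above both control libraries. The ratio of Krt7 to Krt8 per kb averaged 0.247 ± 0.00605 in shSerpine2-1, 0.208 ± 0.00770 in shSerpine2-2, 0.244 ± 0.00563 in shSlpi-1, 0.253 ± 0.00113 in shSlpi-2 and 0.163 ± 0.00383 in shRenilla (SD, n = 2). That ratio was thus higher in each knockdown group by more than the spread of its libraries. The ratio of the partners Krt8 and Krt18 moved less, at 0.471 ± 0.0148, 0.493 ± 0.0255, 0.454 ± 0.0436, 0.424 ± 0.0486 and 0.433 ± 0.0184 in the same order of groups. The type II keratins together averaged 0.464 to 0.537 of the type I keratins in the knockdown groups and 0.458 in shRenilla. By library (A and B) this was 0.536 and 0.518 in shSerpine2-1 and 0.554 and 0.520 in shSerpine2-2, above the 0.474 and 0.443 of shRenilla. The Slpi groups overlapped the control, with 0.467 and 0.539 in shSlpi-1 and 0.497 and 0.431 in shSlpi-2. These ratios divide Krt7 by all its exons (7049 bases). Whether the overlap holds with its longest coding transcript (4094 bases) was not tested.

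**Figure D4:**
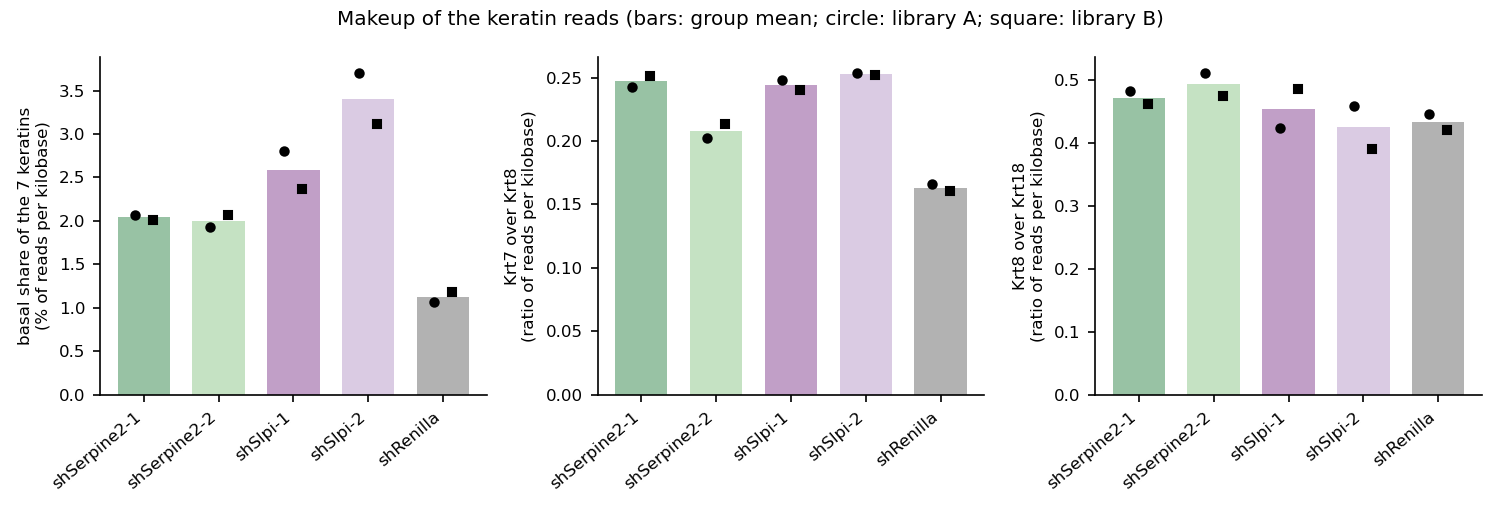
Share of basal keratins in the summed keratin reads per kb, in percent, and the Krt7 to Krt8 and Krt8 to Krt18 ratios per kb, with 1 point a library (circle A, square B) and a bar at each group mean. The basal share was 1.07% and 1.18% in shRenilla and 1.93% to 3.70% in the knockdown libraries.

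Of the 45 other keratins of the table, 5 reached the filter. Krt80, a type II keratin, averaged 296 normalized reads in shSerpine2-1, 244 in shSerpine2-2, 299.99 in shSlpi-1, 278 in shSlpi-2 and 189 in shRenilla. It rose by 0.51 with the Serpine2 hairpins (SE 0.09, adjusted p = 7.25e-04) and by 0.61 with the Slpi hairpins (SE 0.09, adjusted p = 5.10e-05). The other 4 did not pass with either: Krt10, of suprabasal epidermis, differed by -0.05 and 0.09, Krt16 by 0.04 and 0.49, the hair keratin Krt85 by 0.44 and 0.38, and Krt222 by -0.71 and -0.18.

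Genes that anchor or neighbour keratin filaments were higher more often than lower. Of 24 desmosomal, hemidesmosomal, linker and other intermediate filament genes, 10 rose and 1 fell with the Serpine2 hairpins, with a median log2 difference of 0.17, and 11 rose and 2 fell with the Slpi hairpins, with a median of 0.19. Of all genes tested, 10.7% rose and 10.8% fell with the Serpine2 hairpins, and 16.5% rose and 18.3% fell with the Slpi hairpins. With shSlpi-1 alone, 5 of the 24 rose and 2 fell, where 941 of the 12299 genes tested rose and 1215 fell. Eppk1 (epiplakin), a linker that binds keratins, averaged 595 normalized reads with the Serpine2 hairpins and 687 with the Slpi hairpins, against 408 in shRenilla, and rose by 0.54 (adjusted p = 1.22e-04) and 0.75 (adjusted p = 1.43e-06). Dsp, the desmoplakin that ties keratins to desmosomes, rose by 0.32 (adjusted p = 7.55e-04) and 0.52 (adjusted p = 2.75e-06), and the desmosomal cadherin Dsg2 by 0.23 (adjusted p = 0.00399) and 0.50 (adjusted p = 1.91e-06). The nuclear lamin gene Lmna rose by 0.25 (adjusted p = 6.53e-04) and 0.36 (adjusted p = 6.75e-06), and did not pass with shSerpine2-1 alone (0.04, adjusted p = 0.614). Dsp did not pass with shSerpine2-2 alone (0.18, adjusted p = 0.0519).

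Transcription factors known to act on epithelial and keratin genes went the other way more often. Of 30 listed, 20 were tested, of which 1 rose and 5 fell with the Serpine2 hairpins (median -0.05), and 2 rose and 8 fell with the Slpi hairpins (median -0.13), beside 10.8% and 18.3% of all genes that fell. With shSlpi-1 alone, 1 rose and 8 fell, where 941 of the 12299 genes tested rose and 1215 fell. Zeb2, a repressor of epithelial genes, averaged 4226 normalized reads with the Serpine2 and 3770.1 with the Slpi hairpins, against 4992 in shRenilla, and fell by 0.24 (adjusted p = 0.00257) and by 0.41 (adjusted p = 1.29e-05) on the log2 scale. The mammary luminal factor Gata3 fell by 0.23 (adjusted p = 0.00626) and by 0.36 (adjusted p = 8.29e-05). Runx1 fell by 0.35 (adjusted p = 1.09e-04) and by 0.46 (adjusted p = 1.98e-06), and Tfap2a, which binds keratin promoters, by 0.33 (adjusted p = 0.00122) and by 0.44 (adjusted p = 3.78e-05). Zeb2 with shSerpine2-1 alone (-0.13, adjusted p = 0.186) and Gata3 with shSerpine2-2 alone (-0.15, adjusted p = 0.0811) did not pass. Trp63, which drives Krt5 and Krt14 in basal epithelium, had 0 to 7 reads per library and was not tested.

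Other mammary lineage genes did not share 1 direction. Of 24 basal or myoepithelial genes, 16 were tested, of which 2 rose and 1 fell with the Serpine2 hairpins (median 0.02), and 5 rose and 3 fell with the Slpi hairpins (median 0.01), shares near or above those of all genes for rises (10.7% and 16.5%) and near or below them for falls (10.8% and 18.3%). With shSlpi-1 alone, 1 rose and 1 fell, near the shares of all genes (941 of 12299 rose and 1215 fell). Lamb3, which encodes a basement membrane laminin chain, rose by 0.24 (adjusted p = 0.00489) and 0.48 (adjusted p = 5.31e-06), but did not pass with shSerpine2-1 (0.11, adjusted p = 0.317) or shSlpi-1 (0.07, adjusted p = 0.507) alone. Itgb1, a subunit of laminin and collagen receptors, was 0.14 higher with the Serpine2 hairpins without passing (adjusted p = 0.0729) and rose by 0.32 with the Slpi hairpins (adjusted p = 1.68e-04), but not with shSlpi-1 alone (0.17, adjusted p = 0.0590). Acta2, the smooth muscle actin of myoepithelium, averaged 28.0 and 38.8 normalized reads, against 60.9 in shRenilla, and fell by 1.18 (adjusted p = 0.00104) and by 0.67 (adjusted p = 0.0212). With shSerpine2-1 (-0.71, adjusted p = 0.0750) or shSlpi-1 (-0.38, adjusted p = 0.313) alone Acta2 did not pass.

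Of 27 luminal genes, 14 were tested, of which 2 rose and 4 fell with the Serpine2 hairpins (median -0.20), and 5 rose and 4 fell with the Slpi hairpins (median -0.00), against the same shares of all genes. With shSlpi-1 alone, 2 rose and 4 fell, where 941 of the 12299 genes tested rose and 1215 fell. The epithelial adhesion gene Epcam rose by 0.29 (adjusted p = 4.88e-04) and 0.59 (adjusted p = 1.51e-07), and the tight junction gene Cldn3 by 0.45 (adjusted p = 0.00927) and 0.90 (adjusted p = 1.62e-05), although Cldn3 did not pass with shSerpine2-1 alone (0.37, adjusted p = 0.0806). The surface glycoprotein gene Cd24a fell by 0.49 (adjusted p = 1.79e-04) and by 0.57 (adjusted p = 1.45e-05), and the milk protein gene Csn3 (kappa-casein) by 0.66 (adjusted p = 1.98e-04) and by 0.64 (adjusted p = 8.94e-05).

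The genes whose levels ran most like each keratin were found by Pearson's r of log2(normalized reads + 1) over the 10 libraries, which fall into 5 groups, among 10535 genes with a mean of at least 50. They were Scd2 (r = 0.975) and Gsn (0.973) for Krt14, Ncaph2 (0.978) and Acat2 (0.974) for Krt7, Csk (0.989) and Pak4 (0.988) for Krt8, Cox5b (0.992) and Tapbp (0.987) for Krt18, and Notch1 (0.976) and Tceb1 (0.975) for Krt19. All 10 had their highest group mean in shSlpi-2, as the 5 keratins did. Their choice by high r made this likely in advance, so it is no separate result. Among the keratins, r ranged from 0.61 for Krt7 with Krt19 to 0.95 for Krt14 with Krt7, and was 0.91 for Krt18 with Krt19. For the partners Krt8 and Krt18 it was 0.79, as it also was for Krt14 with Krt18 and for Krt14 with Krt19.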

How the data were processed

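Per the labels' protocols, cDNA made from total RNA with NuGEN Ovation chemistry was sequenced with 76 bp reads. The authors used Bowtie2, HTSeq and DESeq on build mm10, per the submitters' processing notes. Versions, annotation, filters and strand use: not given in the sources used here. The values as deposited are log2 values, for 23479 entries in 10 libraries. Their floor of 6.733366499 and their form are those of a variance-stabilizing transformation, which no label states. The values were inverted to normalized reads, which were whole multiples of 1 read in every library (100% within 0.01 reads). A count of 0 leaves room for 3 reads, or 2.30 to 3.48 normalized reads. The planned test then ran on log2(normalized reads + 1) with limma 3.58.1 in R 4.3.3 (eBayes with a mean-variance trend, 5 group means) over 12299 genes, those averaging at least 10. P-values are two-sided and Benjamini-Hochberg adjusted, and "rose" or "fell" means an adjusted p under 0.05. This scale understates changes of weakly expressed genes. The fit was tested on simulated data.

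The keratins, gene lists and tests were chosen with earlier results of these data known. Named were the 7 keratins, other keratins over the filter, up to 4 called genes per list with the smallest p, and the 2 genes most like each keratin. A gene that this rule names is not reported here. Gene models without a proper name, spreadsheet dates (27 entries) and keratins were not eligible as most alike. Vim, Trp63 and Krt8-ps were picked after their values or matches were seen. Alternatives changed the scale, pseudocount, filter, normalization, libraries and gene length, and added a replicate block. Krt17 and Krt19 have no promoter entry among the sequences used here.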

Additional observations from a re-analysis of the deposited data

Results flagged for a closer look

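Hairpins against the same gene gave different keratin levels, by a direct test of hairpin against hairpin in limma with Benjamini-Hochberg adjustment. Krt8 differed by -0.29 (log2, adjusted p = 0.00245) and Krt18 by -0.23 (adjusted p = 0.0103) between shSerpine2-1 and shSerpine2-2, lower with the first in both libraries of each gene. Of all genes tested, 7.69% were lower with shSerpine2-1. The Krt18 call was lost without shSerpine2-1 A, shSerpine2-1 B or shSerpine2-2 B, and with no filter.

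Between shSlpi-1 and shSlpi-2, all 5 tested keratins were lower with the first hairpin, where 12.3% of all genes tested were lower. The Krt8 call was lost without shSlpi-1 A, with only the compared groups in the fit, and scaled by library total. Krt14 differed by -0.69 (adjusted p = 4.89e-04), Krt19 by -0.51 (adjusted p = 2.27e-04), Krt18 by -0.32 (adjusted p = 4.93e-04), Krt7 by -0.27 (adjusted p = 0.00200) and Krt8 by -0.22 (adjusted p = 0.00708). The Rn45s share of reads was 1.96% and 1.89% in shSlpi-1 and 6.88% and 6.91% in shSlpi-2, and its part in these differences was not tested.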

How the results depend on the processing

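Over 45 tested fold changes and up to 20 alternatives each, 854 of 890 values kept their direction and their side of the threshold, 26 lost the call, 4 gained it and 6 changed sign. Krt14 and Krt7 stayed past the threshold under every alternative run, with each hairpin and with each gene's hairpins together against shRenilla. The sign changes were all of differences that had not passed the test. For Krt19 with the Serpine2 hairpins the log2 difference was -0.0027 scaled by library total and -0.00075 after quantile normalization, and -0.018 to 0.038 with 1 library left out. For Krt19 with 1 library left out it was -0.052 to 0.0039 with shSerpine2-1 and -0.0059 to 0.21 with shSlpi-1. For Krt8 between the Serpine2 and Slpi hairpins it was 0.032 without both shSlpi-2 libraries. The count of keratins lower with the Serpine2 than with the Slpi hairpins was 1 without both shSlpi-2 libraries. The count between the 2 Serpine2 hairpins was 1 to 2 with 1 library left out. With reads not divided by gene length, the basal share was 1.80% in both shSerpine2-1 and shSerpine2-2, and the Serpine2 hairpins exceeded shRenilla by 0.737 percentage points in place of 0.896. Divided by the longest coding transcript, a length chosen after seeing the data, the share in shSerpine2-1 was 2.00%. The causes of these shifts were not tested. Differences between libraries A and B correlated by -0.073 to 0.072 from group to group, so no strong shift common to a letter was seen. These values cannot tell whether libraries of the same letter shared a day or culture. A replicate block on the letters left the counts of keratins that rose at 3 with the Serpine2 hairpins and 5 with the Slpi hairpins. It changed no other keratin call. Depth limits Krt5 and Krt17, and leaving out 1 of 2 libraries assumes that the other varies like the remaining groups.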
